A study of Mus musculus with 8 samples.

Results

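Actb and Tuba1b are 2 of the 112 genes that could be given a symbol on this mouse heart array, and both belong to a set of 15 genes that the array carries in 20 spots each. Their probes were found through the RefSeq transcript named beside each probe, and 1 probe matched each gene. They were taken because, in the comparison of knockout with control hearts, they had the largest differences among the reference genes that were measurable. That comparison is therefore given below as a description, without a test.

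Actb encodes beta-actin, one of the cytoplasmic actins, whose filaments support the cell cortex and cell movement. Its transcription is known to respond to serum response factor, which also acts on the actins of muscle. In heart, the thin filaments of cardiomyocytes are built from cardiac alpha-actin, and beta-actin is known to be abundant in fibroblasts, endothelial cells and other non-muscle cells. Tuba1b encodes a widely expressed alpha-tubulin, which pairs with beta-tubulin to form microtubules. Both genes are in common use as references, on the assumption that their level varies little between samples.

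The hearts came from 8 males, 8 to 12 weeks old, and each gave 1 one-colour Agilent array of Cy3-labelled RNA. The 4 control mice had both Klf5 alleles floxed (KLF5 flox/flox) and no Cre recombinase. The 4 knockout mice are labelled aMHC-KLF5-/-, a line in which Cre, named after the alpha-myosin heavy chain gene, removes floxed Klf5 from cardiomyocytes. Klf5 is a Kruppel-like transcription factor, and the study asked how its loss from these cells alters cardiac expression. Floxed alleles were common to both groups. No group with Cre and intact Klf5 was among the 8 hearts, so the presence of Cre and the loss of Klf5 cannot be told apart. Klf5 had no probe with a matched symbol, nor did any of the 34 marker genes of 7 cell types, so neither the deletion nor the tissue was checked through them.

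Values are log2 signal minus the 75th percentile of the same array over 59709 probes, so that 0 is that percentile and a difference of 1 is a doubling. The 75th percentiles themselves lay at 8.34 ± 0.11 in controls and 8.37 ± 0.09 in knockout hearts (log2 signal, SD, n = 4 each). Between 27806 and 43290 probes per array were well above background, and 3 of the 4 knockout arrays had more than any control array. All 160 spots of each gene were well above background and none was saturated on any array. The array position codes of the groups share no first part, so position and genotype cannot be told apart.

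Kruppel-like factors are known to bind GC-rich boxes and CACCC boxes. The upstream sequences used here held no entry for Actb, so only that of Tuba1b is shown. It is the 250 bases before the RefSeq start of the gene, GRCm38.p6 chr15:98934391-98934640, minus strand, written 5′ to 3′ with each CCGCCC in capitals.
Tuba1b: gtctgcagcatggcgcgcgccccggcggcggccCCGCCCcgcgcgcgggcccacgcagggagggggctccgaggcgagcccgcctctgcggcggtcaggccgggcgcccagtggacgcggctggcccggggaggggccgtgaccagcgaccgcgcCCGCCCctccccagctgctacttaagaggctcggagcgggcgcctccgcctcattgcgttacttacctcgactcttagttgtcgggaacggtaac
CCGCCC occurred 2 times as written and GGGCGG, its reverse complement, 0 times. Of 32851 upstream stretches of this length in the same RefSeq table, 32.7% held the motif on either strand. CACCC and its reverse complement GGGTG occurred 0 times in the Tuba1b stretch, against at least 1 match in 52.0% of all stretches. These are matches of letters, and no binding was measured. The sequences of the array probes were not used here, so hybridisation of transcripts from near-identical genes was not checked. Both genes belong to families of close copies, among them gamma-actin and the other alpha-tubulins.

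Actb varied widely from heart to heart in both groups. In controls its level was 4.49, 5.46, 4.77 and 5.00 in replicates 1 to 4, a mean of 4.93 ± 0.41 (log2 signal relative to the 75th percentile, SD, n = 4). In knockout hearts it was 5.52, 5.75, 4.90 and 5.40, a mean of 5.39 ± 0.36 (SD, n = 4). Knockout replicates 1 and 2 lay above every control, while knockout replicate 3 lay below control replicates 2 and 4. From the lowest heart, control replicate 1, to the highest, knockout replicate 2, the signal rose 2.39-fold. The order from low to high was control 1, control 3, knockout 3, control 4, knockout 4, control 2, knockout 1 and knockout 2, so the groups overlapped.

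The difference of the means was 0.46 with an SE of 0.27, or 1.38-fold higher in knockout hearts. It was carried unevenly by single hearts. Without control replicate 1, the lowest heart, it was 0.32, and without control replicate 2, the highest control, it was 0.64. Whole hearts were measured, so a larger share of beta-actin-rich cells and more beta-actin RNA per cell cannot be told apart.

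Tuba1b had a smaller spread among hearts. In controls its level was 7.13, 7.07, 7.10 and 6.73 in replicates 1 to 4, a mean of 7.01 ± 0.19 (log2 signal relative to the 75th percentile, SD, n = 4). In knockout hearts it was 7.37, 7.34, 6.93 and 7.26, a mean of 7.22 ± 0.20 (SD, n = 4). Knockout replicates 1, 2 and 4 lay above every control, and knockout replicate 3 lay below 3 of the 4. Control replicate 4 was the lowest heart of all, and the whole range over the 8 hearts was 1.55-fold. The order from low to high was control 4, knockout 3, control 2, control 3, control 1, knockout 4, knockout 2 and knockout 1.

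The difference of the means for Tuba1b was 0.22 with an SE of 0.14, or 1.16-fold higher in knockout hearts. Without control replicate 4 it fell to 0.13. Without knockout replicate 3 it was 0.32. Both genes thus had their lowest knockout value in the same heart, replicate 3, but their lowest control value in different hearts.

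**Figure D1:**
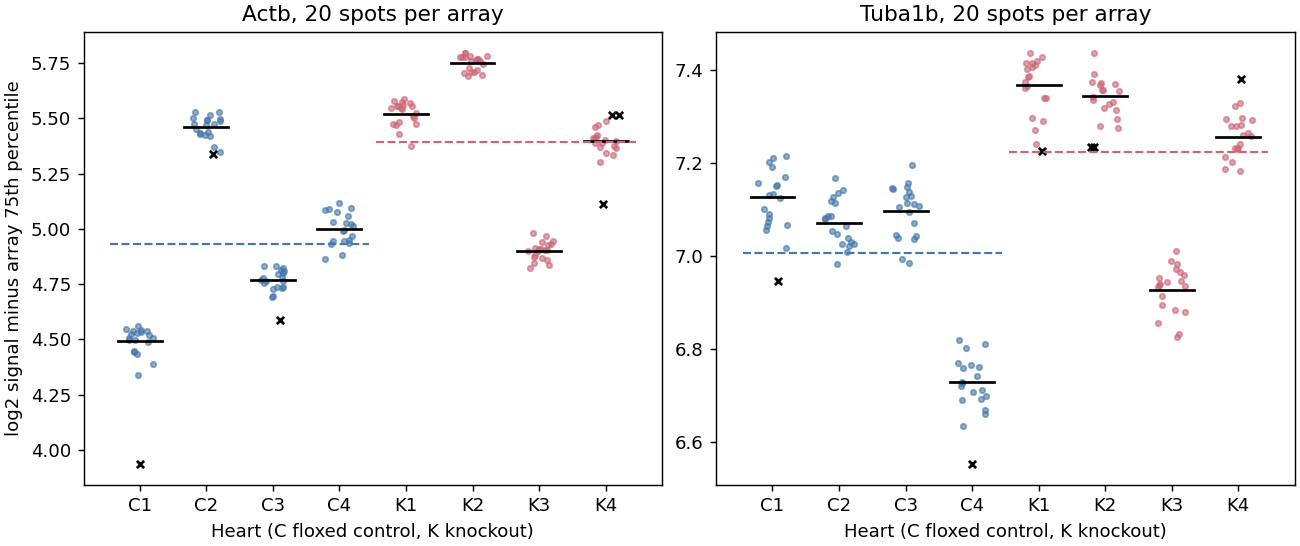
Each point is 1 spot of the Actb probe (left) or the Tuba1b probe (right), as log2 signal minus the 75th percentile of its array, for control hearts C1 to C4 and knockout hearts K1 to K4. Solid bars are the array means over spots without an outlier mark, crosses are marked spots, and dashed lines are the means of the 4 hearts of a group, 4.93 and 5.39 for Actb and 7.01 and 7.22 for Tuba1b. For Actb the 4 hearts of each group have separate means, while for Tuba1b control replicates 1, 2 and 3 lie together, as do knockout replicates 1 and 2.

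Repeated spots show how evenly the spots of 1 array read the same labelled sample. For Actb the SD among spots of 1 array was between 0.03 and 0.07 on the log2 scale, and for Tuba1b it was between 0.04 and 0.06. The spread among hearts of a group was larger, with a pooled SD within groups of 0.39 for Actb and 0.19 for Tuba1b. The SE of an array mean over its spots was at most 0.016 for Actb and 0.013 for Tuba1b. Spots are repeats within 1 sample and were not counted as replicates. Each heart gave 1 array, so differences between hearts and differences in RNA, labelling or hybridisation cannot be told apart. Of the 160 spots, 6 carried an outlier mark for Actb and 6 for Tuba1b. The farthest of them, an Actb spot on control replicate 1, lay 0.56 below the mean of the other spots of that array (a deviation of -0.56).

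In a limma fit to all 27878 tested probes, 39 differed between the groups at an adjusted p under 0.05, which is 0.140% of them. Of Actb and Tuba1b, 0 of 2 were among them, and 0 of 2 had a limma unadjusted p under 0.05, against 8.06% of all tested probes. With a block on replicate number, Actb did have a limma unadjusted p under 0.05, and neither gene was called. Among all 27878 tested probes, 1675 higher and 1208 lower in knockout hearts had such a p with the block. Groups that did not overlap were seen in 0 of 2 members and in 5.75% of tested probes. The genes were chosen by this same contrast, so nothing is read from these counts or from the p of Actb with the block. The count of 39 was 79 of 28388 tested without control replicate 1 and 73 of 33132 tested without knockout replicate 4. The filter on signal admitted a different set of probes each time. Of the members, 0 of 2 were called either time.

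The spread within groups is not itself the contrast by which the genes were chosen, but genes picked for large differences of group means tend to have a large spread, so the ranks that follow are a description only. For Actb, the pooled SD of 0.39 exceeded that of 76.7% of tested probes, whose median was 0.22. Among the 1104 tested probes with a mean within 0.5 of that of Actb, 93.1% had a smaller SD, and their median was 0.16. For Tuba1b, the pooled SD of 0.19 exceeded that of 41.4% of all tested probes, but that of 87.3% of the 512 probes with a mean within 0.5 of its own, whose median was 0.11. Both genes therefore varied more from heart to heart than most probes of similar signal on these arrays.

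Among the reference genes, 14 of 15 passed the filter on signal, and Actb and Tuba1b were exceeded in pooled SD only by Tfrc and B2m. Tfrc, the transferrin receptor gene, had 0.77, and B2m, which encodes beta-2-microglobulin, had 0.43. The remaining 10 genes lay below Tuba1b, down to 0.05 for Nono, which encodes an RNA-binding protein of paraspeckles. Gapdh, a glycolytic enzyme, had 0.06. Tfrc and B2m had differences of 0.03 and -0.07, and over the 12 tested reference genes other than Actb and Tuba1b the differences ran from -0.07 to 0.14 with a median of 0.03.

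**Figure D2:**
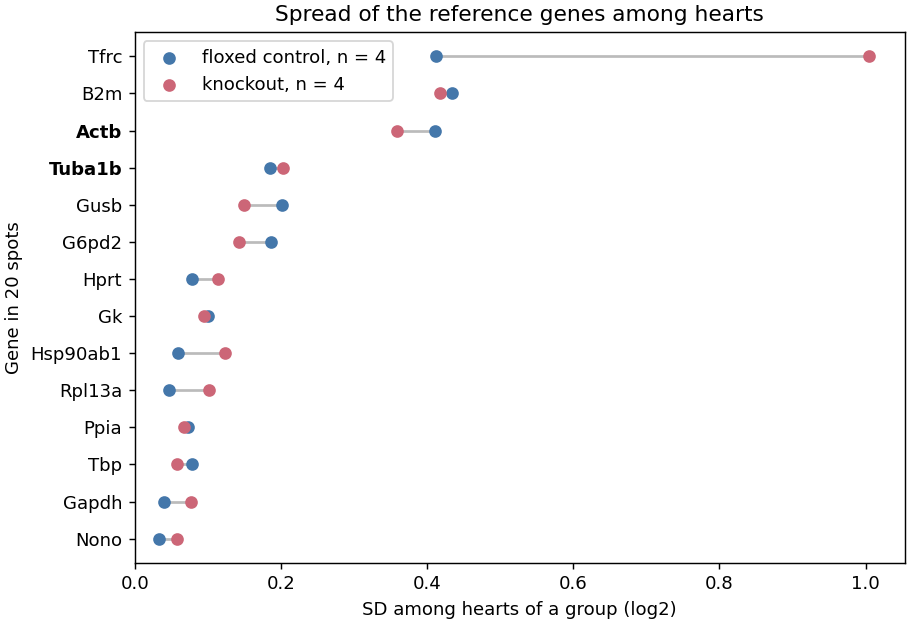
The SD among the 4 hearts of a group, in log2 units, is plotted for each of the 14 tested genes spotted 20 times, with controls and knockout hearts as separate points. Actb (0.41 and 0.36) and Tuba1b (0.19 and 0.20) lie below Tfrc and above most other reference genes in both groups.

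A difference taken within an array does not change when each array is scaled by a single constant. Relative to the mean of the other 13 genes in 20 spots, Actb was 1.14 ± 0.45 in controls and 1.54 ± 0.36 in knockout hearts (log2, SD, n = 4 each), a difference of 0.40 with an SE of 0.29. On the same scale Tuba1b was 3.22 ± 0.21 in controls and 3.37 ± 0.19 in knockout hearts, a difference of 0.16 with an SE of 0.14. One of the 13, Ldhal6b, a lactate dehydrogenase-like gene, was well above background on 1 of 8 arrays and failed the filter. Without it, an alternative chosen after the data were seen, the differences were 0.43 for Actb and 0.19 for Tuba1b. The groups overlapped here too. The 4 control values of Actb were 0.65, 1.72, 1.03 and 1.17 and the 4 knockout values 1.68, 1.94, 1.11 and 1.44. Without control replicate 1 the relative difference of Actb was 0.24, and without control replicate 4 that of Tuba1b was 0.05, against 0.24 without knockout replicate 3. The log2 ratio of Actb to Tuba1b on each array was higher in knockout hearts by 0.24 with an SE of 0.26, and its SD was 0.49 in controls and 0.18 in knockout hearts.

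**Figure D3:**
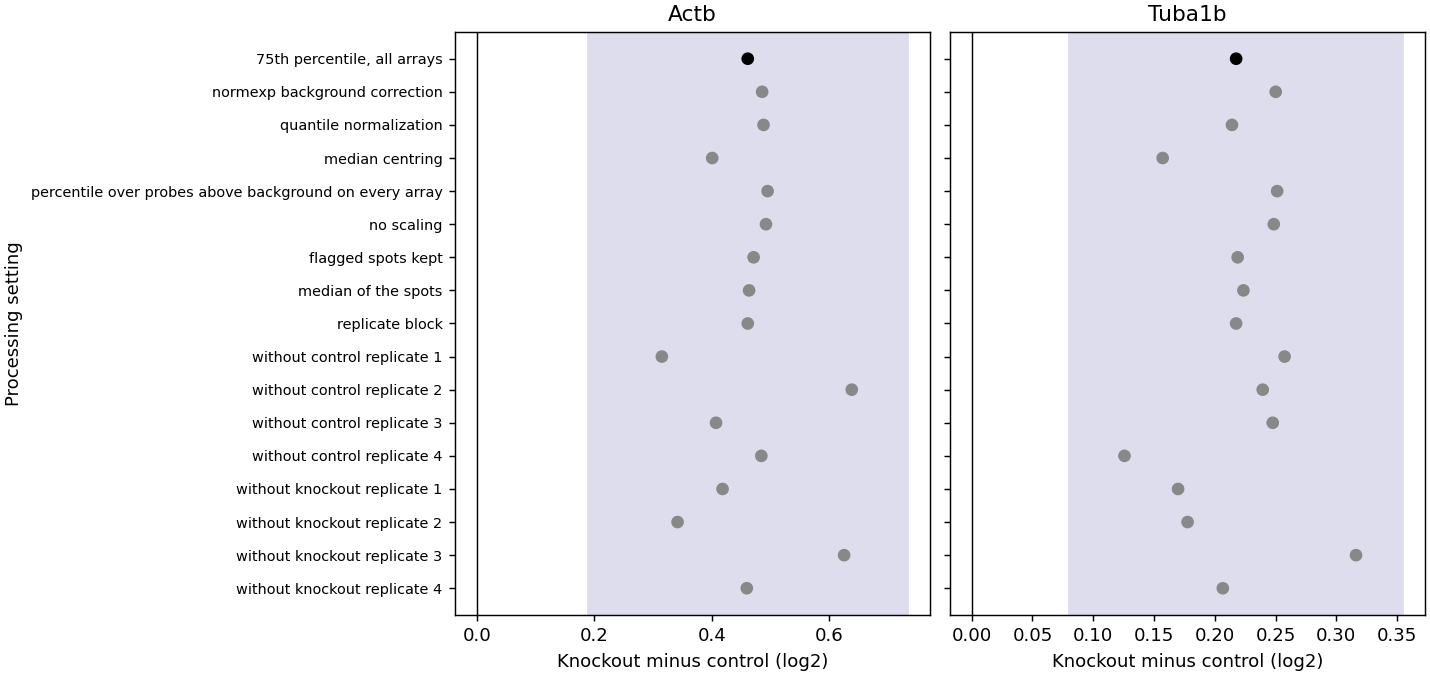
The difference of Actb (left) and Tuba1b (right), knockout minus control in log2 units, is plotted for each processing setting and each omitted heart, with the reported setting in black and a shaded band of 1 SE on either side of it. All points lie above 0, from 0.32 to 0.64 for Actb and from 0.13 to 0.32 for Tuba1b. The genes were chosen by this contrast, and all points come from the same arrays.

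Over the 8 arrays, the named genes whose levels followed Actb most closely among 72 candidates measured on every array were Gm20867, Ppia and Gm20854. Pearson's r with Actb was 0.92, 0.88 and 0.86, and Spearman's rho was 0.93, 0.90 and 0.83. Ppia encodes cyclophilin A, a peptidyl-prolyl isomerase that is itself a common reference gene. It moved over a much narrower range than Actb, from 7.64 to 7.87. Gm20867 ran from -1.69 to -0.49 and Gm20854 from -0.40 to 0.57, and both are predicted gene models. With the 2 hearts farthest from the median of Actb left out, r was 0.79 for Gm20867, 0.65 for Ppia and 0.83 for Gm20854.

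For Tuba1b the closest were Gm20877, Tmlhe and Gm20806, with r of 0.66, 0.64 and 0.62 and rho of 0.57, 0.38 and 0.71. Tmlhe encodes trimethyllysine hydroxylase, an enzyme of carnitine synthesis. Without the 2 hearts farthest from the median of Tuba1b, r was 0.89, 0.55 and 0.86. Between Actb and Tuba1b r was 0.55 and rho 0.50, and r was 0.35 after each group was centred on its own mean. These values describe 8 arrays that share their scaling and their groups, so no test is given.

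Since both genes are used as references, each array was also scaled to its own Actb or Tuba1b signal, and the fit to all other probes was repeated. With Tuba1b as the reference, 34 probes were called, 28 higher and 6 lower, which is 0.122% of 27877 tested, and 28 of them were among the 39 above. With Actb as the reference, 186 probes were called, 69 higher and 117 lower, which is 0.667%, and again 28 were among the 39. Of the 117 lower calls, 1 was among the 39. By construction every probe then takes on the group difference of the reference with its sign turned, and the median difference over tested probes moved from 0.00 to -0.46 with Actb and to -0.21 with Tuba1b.

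Scaling to Actb also put the heart-to-heart variation of that gene into every other probe. The median SD within groups rose from 0.22 to 0.43 with Actb and to 0.30 with Tuba1b. At the same time the SDs of different probes became alike, and limma's prior degrees of freedom went from 2.12 to 34.5 with Actb and to 4.50 with Tuba1b. By construction the error of the 1 reference signal is then shared by all probes, and the call count rested on single hearts. With Actb it ran from 88 without control replicate 2 to 1194 without knockout replicate 3, and was 381 without control replicate 3 and 442 without control replicate 4. With Tuba1b it ran from 22 without knockout replicate 3 to 71 without control replicate 1, and was 53 without knockout replicate 4.

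Scaling to the mean of the 12 other reference genes that passed the filter gave 39 calls, 37 higher and 2 lower, or 0.140%, of which 37 were among the original 39.

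**Figure D4:**
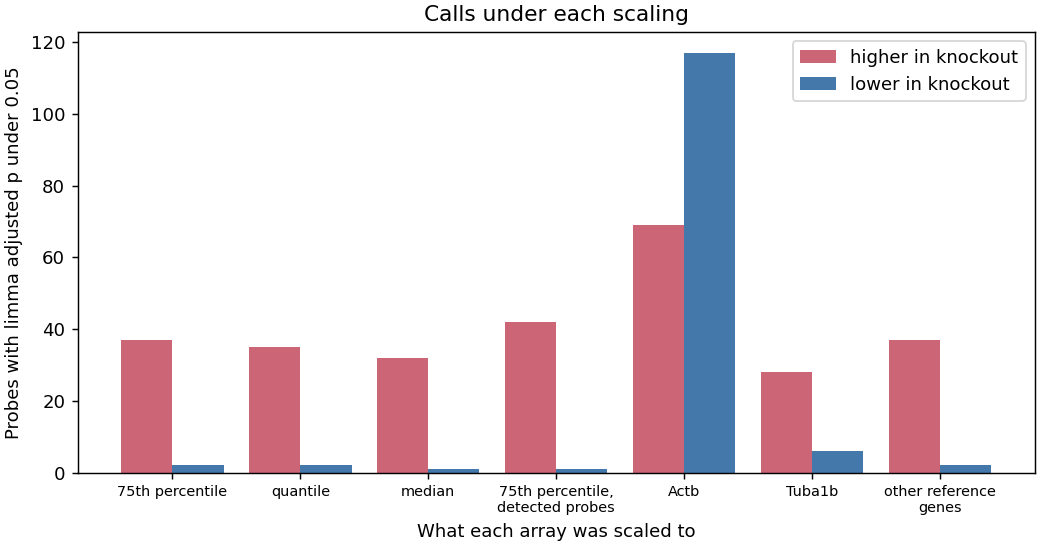
Bars give the number of probes with a limma adjusted p under 0.05 that were higher or lower in knockout hearts, for each quantity to which the arrays were scaled. Scaling to Actb gave 69 higher and 117 lower calls, while each other scaling gave between 28 and 42 higher and between 1 and 6 lower.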

How the data were processed

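Spot intensity was taken from the deposited scanner files, written by Agilent Feature Extraction 11.0.1.1 per the file headers, with background corrected and arrays not scaled to each other. The authors' value table holds log2 values brought to near-equal distributions by a method not given in the sources used here. None of its rows is a probe of Actb, Tuba1b or the other reference genes, so it served only for the count of calls.

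Control spots, spots marked as feature outliers and 1200 spots of probes named as negative controls were left out. Log2 intensities of repeated spots were averaged and the 75th percentile of the array was subtracted. A probe was tested if each group had at least 3 usable arrays and, in 1 group or both, no usable array had it below the limit for well above background. The fit used limma (version 3.58.1, R 4.3.3), p-values were adjusted by the Benjamini-Hochberg method, and the code was tested on simulated data. The number of arrays limits precision. The genes, lists and comparisons were chosen with earlier results of these data known. For each gene, the 3 most correlated named genes above background on all arrays were given. Of the 38 cytoskeletal genes listed for comparison, only Actb and Tuba1b had a matched probe. RefSeq symbols came from assembly GRCm38.p6, matching 116 of 123 probes with an accession. The array design names mm9, and the only coordinates given are those of the RefSeq upstream sequence.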

Additional observations from a re-analysis of the deposited data

Results flagged for a closer look

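Tuba1b in control replicate 4 was 6.73, far from the 7.07 to 7.13 of the other controls for the range of that group. Taken relative to the 13 other genes in 20 spots, the same heart was at 2.90 against 3.28 to 3.35. Both values come from the same spots, so they are not separate observations. In all, 10 groups of 4 hearts were examined in this way, and chance marks about 1 in 20.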

How the results depend on the processing

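The differences of Actb and Tuba1b were positive in all 16 alternatives run for each, and in all 15 run for each relative difference. None moved by as much as the SD within groups, but leaving out 1 of 4 hearts cannot move a group mean that far, so this shows nothing for those omissions. Leaving out 1 heart gave 0.32 to 0.64 for Actb, 0.13 to 0.32 for Tuba1b, 0.24 to 0.60 for relative Actb and 0.05 to 0.24 for relative Tuba1b. The authors' value table could not be run for these genes. The median of the other reference genes in place of their mean, chosen after seeing the data, gave 0.35 for relative Actb and 0.10 for relative Tuba1b, and leaving out the reference gene that failed the filter, also chosen then, gave 0.43 and 0.19.

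The count of calls, 39, ran from 28 to 79 when 1 heart was left out, with between 27873 and 33132 probes tested. It was 11 when each tested probe had to be above background on all 8 arrays, 22 in the authors' values, which hold fewer probes, and 186 after scaling to Actb, an alternative chosen after seeing the data, as were the other scalings to reference genes. Of probes with an unadjusted p under 0.05 in limma, 66.7% were higher in knockout hearts, against 40.2% with median centring, 78.3% with the percentile over probes above background on every array, 8.82% after scaling to Actb and 17.5% after scaling to Tuba1b. The replicate block gave 34 calls. Each replicate number occurs once in each group, so the block cannot change a difference of means, only its SE. The Actb and Tuba1b differences were thus 0.46 (SE 0.20) and 0.22 (SE 0.14), and the relative ones 0.40 and 0.16, by construction. Neither gene was called. Actb's unadjusted p under 0.05 shows nothing. Same-numbered hearts had deviations correlated at 0.06, -0.05, 0.36 and 0.24 over probes. For control replicates 1, 3 and 4, the most correlated knockout heart was the same-numbered one. For control replicate 2 it was knockout replicate 1. The sample labels name no pairs, so the main fit does not use the numbers, and whether they mark pairs was not settled. The replicate number matches the last digit of the position code on 8 of 8 arrays, so this block is also one on position.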

Other observations

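Small position effects were visible in the repeated spots, in a division of columns chosen after the values were seen. Each gene had 6 spots in columns above 138 of 164. These were dimmer than its other spots on 8 of 8 arrays, by -0.08 to -0.03 for Actb and by -0.08 to -0.0041 for Tuba1b (right minus the rest, log2). The size of this shift is small beside the SD among hearts of a group.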
